A study of Rattus norvegicus with 87 samples.

Results

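The glucocorticoid and stress signalling genes were chosen by name and by no measured value, though with earlier results of these data known. The genes came from an expression table of Heterogeneous Stock (HS) rats in which the lateral habenula (LHb) had been sampled. They were Nr3c1 (ENSRNOG00000014096), Fkbp5 (ENSRNOG00000022523), Sgk1 (ENSRNOG00000011815) and Crhr1 (ENSRNOG00000004900). All 4 had a row among the 17512 genes of the table. Expression had been measured by RNA-Seq of polyadenylated RNA in 81 rats, 41 males and 40 females, in 5 rat batches. Every rat was an outbred HS animal, housed in groups, and had met no drug and no behavioural test. The labels give no stress or hormone treatment, so the design sets sex against sex and batch against batch. Hormone levels were not part of the data used here. There were 11 males with 4 females in batch 2, 10 with 12 in batch 3, 12 with 15 in batch 4 and 8 with 8 in batch 6. The only rat of batch 5, a female, is described but was left out of the fits, so that 80 rats entered them. The left and right LHb of a rat were dissected manually on frozen sections and combined, so each value is an average over all cells of the piece. Age was not used here.

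Glucocorticoids such as corticosterone are the hormones that end the stress axis. They act in the brain in part through the glucocorticoid receptor, a transcription factor that the hormone sends to the nucleus. The axis starts with corticotropin-releasing hormone, which acts through the receptor that Crhr1 encodes. The LHb is a nucleus of the epithalamus known for signalling aversive outcomes, and it responds to stress. Nr3c1 encodes the glucocorticoid receptor itself. Fkbp5 encodes a co-chaperone of the receptor complex that lowers the affinity for hormone, and Sgk1 encodes a serum- and glucocorticoid-regulated kinase. Fkbp5 and Sgk1 are both known to be induced by glucocorticoids in brain.

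The promoter windows of the 2 target genes are shown because these genes varied more between rats than most genes of like level. For Sgk1, 2 of its 3 annotated windows are given. The sequences are RefSeq's, on the GRCr8 assembly, and cover the 250 bases before an annotated start, 5′ to 3′ on the strand of the gene. The files use another assembly, so the windows give the sequence and not a position in the files. Capitals mark a GC box (GGGCGG, on either strand) or a TATA box (TATAAA).
Fkbp5, chr20:6543556-6543805, minus strand: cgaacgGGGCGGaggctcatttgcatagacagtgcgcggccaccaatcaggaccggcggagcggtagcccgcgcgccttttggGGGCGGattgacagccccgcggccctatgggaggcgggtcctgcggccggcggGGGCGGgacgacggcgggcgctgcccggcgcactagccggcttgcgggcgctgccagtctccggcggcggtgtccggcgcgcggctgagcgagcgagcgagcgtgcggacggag
Sgk1, chr1:24807232-24807481, minus strand: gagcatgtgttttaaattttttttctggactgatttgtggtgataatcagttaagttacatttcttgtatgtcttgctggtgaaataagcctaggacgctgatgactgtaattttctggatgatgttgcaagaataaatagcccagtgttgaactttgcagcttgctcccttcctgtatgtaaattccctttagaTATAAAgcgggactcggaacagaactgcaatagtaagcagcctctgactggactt
Sgk1, chr1:24804832-24805081, minus strand: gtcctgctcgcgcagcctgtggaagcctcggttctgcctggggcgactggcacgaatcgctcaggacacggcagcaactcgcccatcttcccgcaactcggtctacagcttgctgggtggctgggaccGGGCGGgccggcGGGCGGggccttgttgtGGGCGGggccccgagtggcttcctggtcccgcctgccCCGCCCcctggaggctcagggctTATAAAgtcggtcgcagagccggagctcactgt
The Fkbp5 window held 3 GC boxes and no TATA box, with 76% G and C. The first Sgk1 window held a TATA box from 55 to 50 bases before the start, no GC box, and 39.2% G and C. The other Sgk1 window shown held a TATA box from 33 to 28 bases before its start, 4 GC boxes and 69.6% G and C. The Sgk1 window not shown held GC boxes on the other strand but no TATA box, with 49.6% G and C. Over all 33469 annotated windows the median was 51.2% G and C, a GC box stood in 30.5% and TATAAA in 12.9%. The palindromic glucocorticoid response element (AGAACA, then any 3 bases, then TGTTCT) was in none of the annotated windows of the 4 genes, nor was the hexamer AGAACA alone or the cAMP response element TGACGTCA, each searched on both strands. These letters stood in 0.012%, 17.5% and 1.59% of all windows. A match or a missing match describes these letters in this window and nothing more.

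The deposited values are log2(normalized count + 1), where a normalized count is an estimated read count scaled by the authors to a common upper quartile. Such counts were not divided by transcript length, so levels are compared between rats and never between genes. Scaled totals ran from 16.2 to 20.2 M counts, where 1 M is 1000000. Unscaled totals were recovered for 65 rats and were 20.4 ± 7.02 M (SD, n = 65). Between 296 and 1661 genes were listed at 0 in a rat. The rat identifiers restart their alphabetical order 2 times along the table, which gives 3 column runs, and the labels do not say what these runs are. Batch 2 was entirely in run 1, batches 4 and 6 were entirely in run 3, and batch 3 was spread over all 3, with 7 rats in run 1, 12 in run 2 and 3 in run 3. The 3 rats of batch 3 in run 3 had 1404 to 1578 genes listed at 0, and 3 other rats, 1 of batch 4 and 2 of batch 3 in run 2, had 1491 to 1661. The identifiers could be paired with symbols for the 4 genes alone, so the LHb label was not checked against marker genes. In such bulk tissue, fewer cells of a type and less RNA per cell cannot be told apart.

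All 4 genes were detected in every rat, and Sgk1 varied the most. Nr3c1 lay at 679 normalized counts in the lowest rat, at 1135 in the median rat and at 1426 in the highest, with a mean of 10.11 ± 0.22 on the log2 scale (SD, n = 81). Fkbp5 lay between 501 and 1517 with a median of 764 (9.62 ± 0.39, SD, n = 81). Sgk1 lay between 606 and 8827 with a median of 4041 (11.84 ± 0.78, SD, n = 81), a 14.5-fold range against 2.10-fold for Nr3c1 and 3.02-fold for Fkbp5. Crhr1 was read least often and lay between 44 and 130 with a median of 71 (6.12 ± 0.34, SD, n = 81). At such counts the error of counting is itself a visible part of the spread. The highest Nr3c1 level was that of the batch 5 female, whose other levels were 814 for Fkbp5, 4582 for Sgk1 and 64 for Crhr1.

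**Figure D1:**
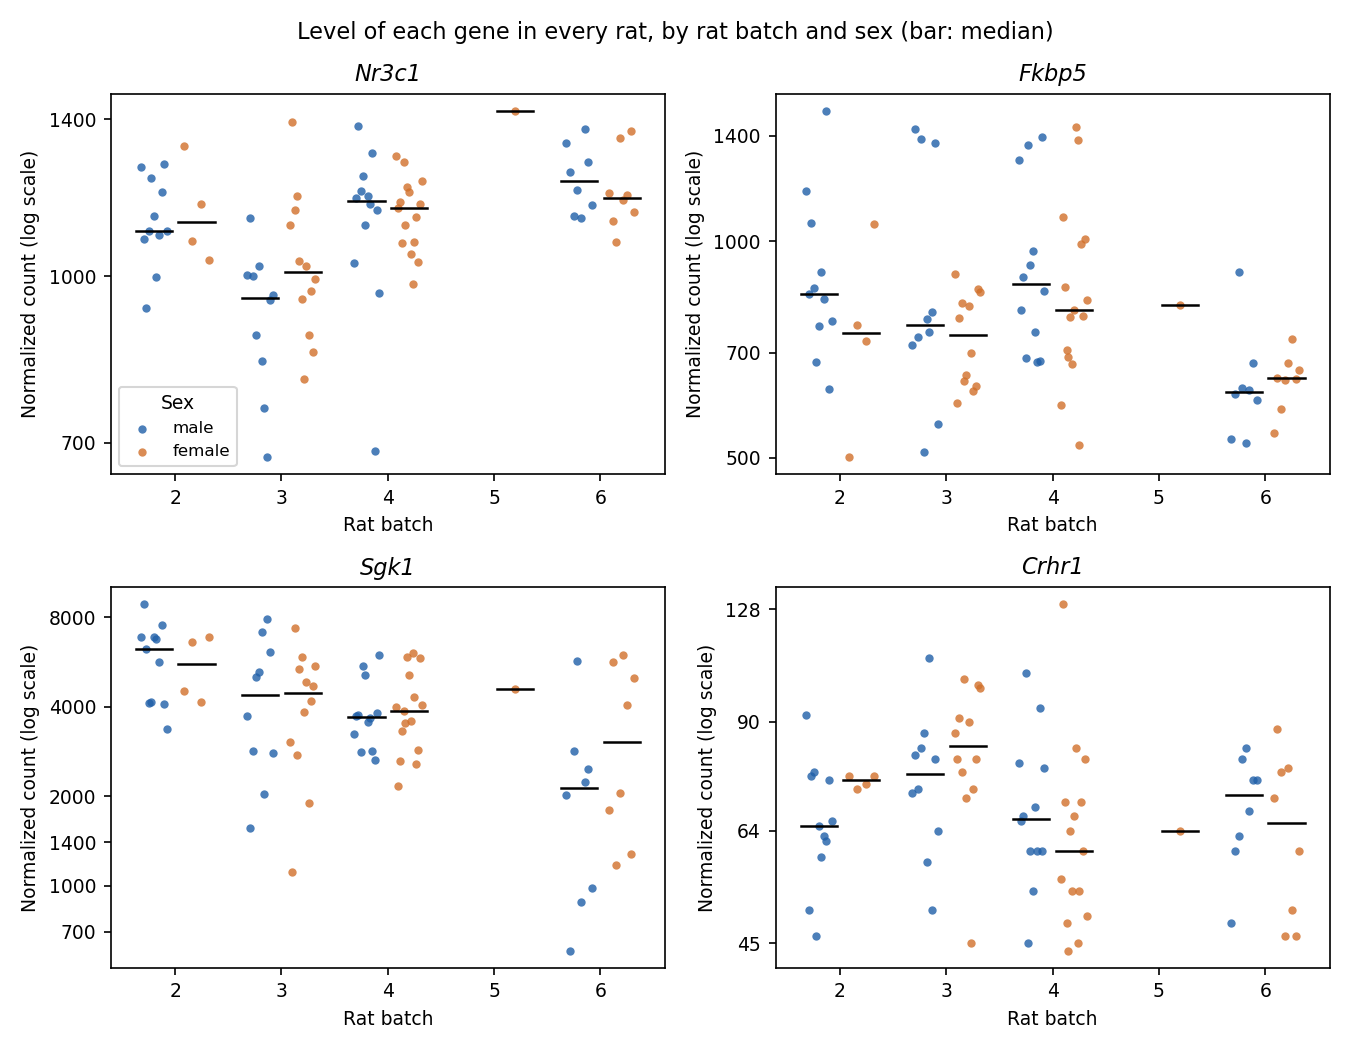
Normalized count (vertical, log scale) of each of the 4 genes in each of 81 rats, by rat batch (horizontal) and sex (colour), with the median of each set as a bar. In batch 6 the Fkbp5 levels were packed between 524 and 905, and the Sgk1 levels spread from 606 to 5946.

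Sgk1 and Fkbp5 also differed more between rats than nearly all genes of like level, while Nr3c1 lay near the middle of its neighbours and Crhr1 below it. After sex and batch were taken out, the SD between rats was 0.682 on the log2 scale for Sgk1 (SE 0.0557, n = 80). The median SD of the 793 genes whose mean lay within 0.5 of it was 0.156, and Sgk1 had a higher SD than 99.9% of them. Fkbp5 had an SD of 0.361 (SE 0.0295) against a median of 0.181 over 2643 such genes, above 95.9% of them. Nr3c1, the receptor, had an SD of 0.181 (SE 0.0148), close to the median of 0.172 over its 2349 neighbours in level. Crhr1, with an SD of 0.330 (SE 0.0269), lay under the median of 0.392 over 1267 genes and above 24.9% of them. These shares are descriptions, since genes are not independent of each other.

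**Figure D2:**
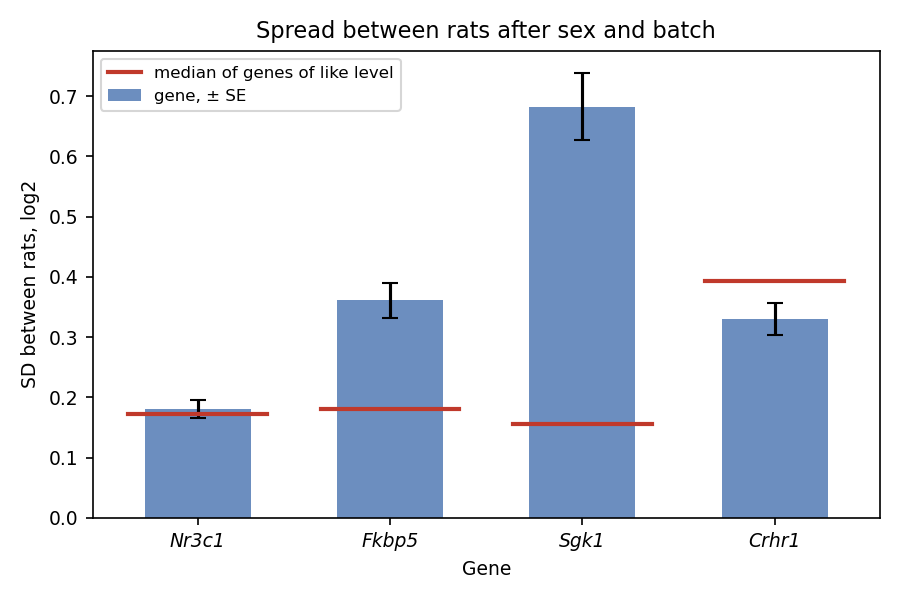
SD between the 80 rats after sex and batch (vertical, log2) for each gene as a bar with its SE, and the median SD of genes within 0.5 log2 of its mean level as a red line. The bars of Sgk1 at 0.682 and Fkbp5 at 0.361 stand above their lines, and that of Crhr1 at 0.330 stands below.

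No sex difference was detected in any of the 4 genes. Across all genes, limma called 23 of 17512 (0.131%) at an adjusted p under 0.05. Fkbp5 lay between 509 and 1517 in males with a median of 780 (n = 41), and between 501 and 1441 in females with a median of 729 (n = 40). The fitted difference, male minus female with batch in the model, was 0.14 on the log2 scale (SE 0.0806, 95% interval -0.03 to 0.30, limma adjusted p = 0.998, 41 males and 39 females). The interval runs from -1.74% to 22.7% in males against females, and the levels of the sexes overlap almost over their whole range. Nr3c1 lay between 679 and 1381 in males (median 1133) and between 803 and 1426 in females (median 1141.5). Its difference was -0.051 (SE 0.0411, 95% interval -0.13 to 0.03, limma adjusted p = 0.998). Sgk1 had its lowest level, 606, and its highest, 8827, both in males, with medians of 3760 in males and 4090 in females. Its difference was -0.12 (SE 0.152, 95% interval -0.42 to 0.18, limma adjusted p = 0.998). Crhr1 had medians of 68 in males and 72 in females, and a difference of 0.00098 (SE 0.0766, 95% interval -0.15 to 0.15, limma adjusted p = 0.999).

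The intervals set the limits of these comparisons, which were narrowest for Nr3c1, from -8.82% to 2.13% in males against females, and widest for Sgk1, from -25.3% to 13.4%. Within the batches the Fkbp5 difference was 0.26 in batch 2 (SE 0.201), 0.21 in batch 3 (SE 0.156), 0.11 in batch 4 (SE 0.146) and -0.023 in batch 6 (SE 0.0925). That of Sgk1 was 0.058 (SE 0.224), 0.055 (SE 0.301) and -0.017 (SE 0.154) in batches 2, 3 and 4. In batch 6 it was -0.66 (SE 0.457), with levels from 606 to 5688 in the 8 males and from 1172 to 5946 in the 8 females. None of these within-batch differences passed limma's adjusted test, which called 0.0514% of all genes in batches 2 and 3, 0.0799% in batch 4 and 0.0628% in batch 6. The sex by batch interaction was called for 0 of 17512 genes by limma (0%), while 306 genes had an unadjusted p under 0.05, and none of the 4 genes was among these, their unadjusted limma p lying between 0.335 and 0.689.

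**Figure D3:**
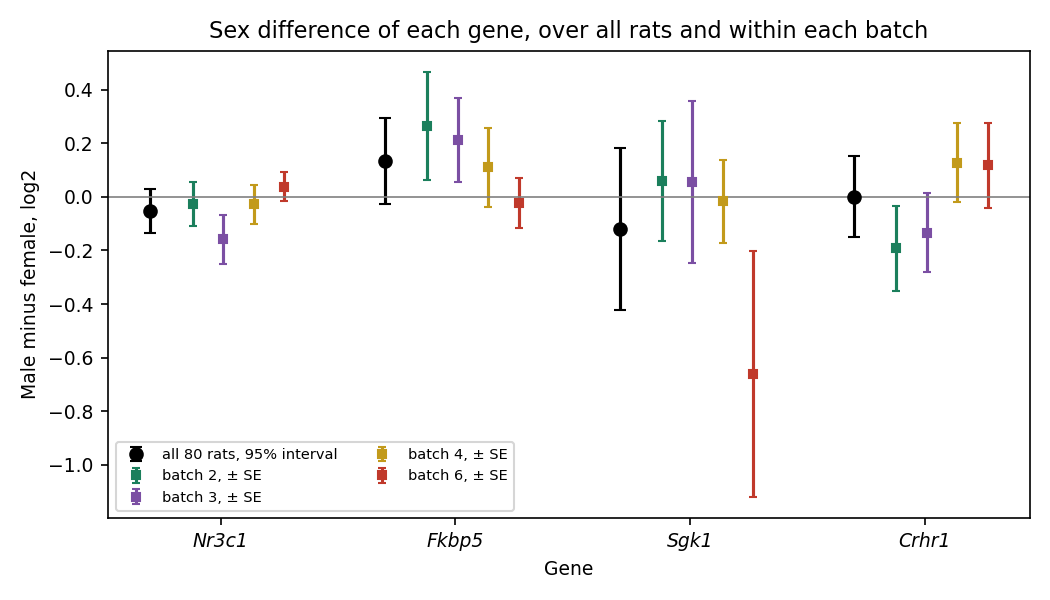
Difference male minus female (vertical, log2) for each gene, over all 80 rats with its 95% interval (black) and within each of 4 batches with its SE (colours). All 4 black intervals include 0, and the estimate farthest from 0 is -0.66 for Sgk1 in batch 6.

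The rat batches differed in 3 of the 4 genes, against 65.3% of all genes in the same F-test (11444 of 17512), so the share of the 4 genes was near that of the whole table. Limma's adjusted p was 5.82e-06 for Nr3c1, 0.00181 for Fkbp5, 1.75e-05 for Sgk1 and 0.0516 for Crhr1. Batch took 31.8% of the variance of Nr3c1 after sex, 18.3% of that of Fkbp5, 28.8% of that of Sgk1 and 11.1% of that of Crhr1. With the column run in the model, in which 35.3% of all genes were called, limma's adjusted p was 0.0396, 0.00611, 0.000808 and 0.201 in the same order. In that model, every difference of batches 4 and 6 from batches 2 and 3 goes through the 3 rats of batch 3 in run 3. These rats had 1404 to 1578 genes listed at 0. Batch is a label of the rats, and their collection, dissection and sequencing cannot be told apart from it. The number of genes listed at 0 moved with batch too, with a median of 459 for batch 2, of 630 for batch 3, of 634 for batch 4 and of 467.5 for batch 6. The recovered totals had medians of 16.46, 16.33, 19.55 and 20.5 M in the same order.

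Sgk1, the kinase, was highest in batch 2 and lowest in batch 6. It lay between 3374 and 8827 in batch 2 (median 6248, n = 15), between 1116 and 7879 in batch 3 (median 4438.5, n = 22), between 2167 and 6047 in batch 4 (median 3706, n = 27) and between 606 and 5946 in batch 6 (median 2139, n = 16). All ranges overlap, and 11 of the 16 rats of batch 6 lay under the lowest rat of batch 2. Batch 6 was lower than batch 2 by limma (difference -1.35, SE 0.240, limma adjusted p = 4.64e-06) and stood at 0.392-fold, in a contrast that called 42.4% of all genes. It was also lower than batch 3 (-0.78, SE 0.217, limma adjusted p = 0.00140, with 59.2% of all genes called) and than batch 4 (-0.76, SE 0.209, limma adjusted p = 0.0218, with 6.04% called). Batch 4 was lower than batch 2, at 0.665-fold, a log2 difference of -0.59 (SE 0.217, limma adjusted p = 0.0281, with 33.9% called). With the column run in the model this last difference was larger but less certain, at -1.26 (0.417-fold, SE 0.509, limma adjusted p = 0.0693, with 18.5% called). The difference of batch 6 from batch 2 was then -2.02 (0.247-fold, SE 0.518, limma adjusted p = 0.00202, with 33% called). Batch 2 shares no run with batches 4 and 6. Both differences with the run in the model therefore rest on batch 3, with 7 rats in run 1 and 3 in run 3. Batches 3 and 4 (-0.020, SE 0.190, limma adjusted p = 0.937) were neighbours whose difference did not pass, as were batches 3 and 2 (-0.57, SE 0.226, limma adjusted p = 0.102).

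The spread of Sgk1 within a batch was unequal as well. Its SD was 1.04 in batch 6 (n = 16) and 0.76 in batch 3 (n = 22), and 0.42 in both batch 2 (n = 15) and batch 4 (n = 27). The limma fits used a common spread for all batches, so their SE and p do not allow for this difference in SD. In batch 6, 8 of the 16 rats lay under the lowest rat of batch 4, and the highest rat, at 5946, lay near the top of batch 4. The lowest Sgk1 level of the series, 606, was that of male rat 7 of batch 6, whose Nr3c1 level of 1251 lay inside the range of its batch.

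Fkbp5, the co-chaperone, was lower in batch 6 than in each of the other batches when the column run was not in the model. It lay between 524 and 905 in batch 6 with a median of 633.5. The medians were 832 in batch 2 (501 to 1517), 763.5 in batch 3 (509 to 1430) and 827 in batch 4 (520 to 1441). The lowest rats were thus alike in all batches and the high levels were missing in batch 6, where 10 of the 27 rats of batch 4 lay above the highest rat. The difference of batch 6 from batch 4 was -0.47 (SE 0.111, limma adjusted p = 0.00896), which is 0.723-fold, from batch 2 -0.38 (SE 0.128, limma adjusted p = 0.0123) and from batch 3 -0.31 (SE 0.116, limma adjusted p = 0.0180). With the column run in the model the differences from batches 2 and 3 were -0.42 (SE 0.28) and -0.43 (SE 0.223), and neither passed (limma adjusted p = 0.244 and 0.12). The SD of Fkbp5 was 0.19 in batch 6, against 0.39, 0.40 and 0.40 in batches 2, 3 and 4. Among batches 2, 3 and 4 no contrast of Fkbp5 passed, with limma adjusted p between 0.177 and 0.756.

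Because all rats of batches 4 and 6 stood in run 3, these batches could be compared within it. There limma called 1754 of 17512 genes (10%). Fkbp5 was lower in batch 6 by 0.46 (difference -0.46, SE 0.103, limma adjusted p = 0.00861, n = 16 and 27), and Sgk1 by 0.75 (difference -0.75, SE 0.213, limma adjusted p = 0.0236). Nr3c1 (0.10, SE 0.0519, limma adjusted p = 0.188) and Crhr1 (0.0089, SE 0.112, limma adjusted p = 0.970) did not pass. With the number of genes listed at 0 as a covariate, limma called 198 of 17512 genes, against 1754 without it. The Sgk1 difference was then -0.78 with a limma adjusted p of 0.0689, and that of Fkbp5 was -0.48 with a limma adjusted p of 0.0297. Within run 1, batch 3 against batch 2 gave 0 called genes in limma (0%), and the Sgk1 difference there was -0.94 (SE 0.294, limma adjusted p = 0.493), against -0.57 over all runs, between 7 and 15 rats.

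Nr3c1, the receptor, was lowest in batch 3. It lay between 679 and 1393 there with a median of 982.5, against 935 to 1323 (median 1103) in batch 2, 688 to 1381 (median 1167) in batch 4 and 1076 to 1371 (median 1193) in batch 6. Of the 22 rats of batch 3, 17 lay under the lowest rat of batch 6. Batch 3 was lower than batch 2 (difference of batch 3 -0.24, SE 0.0612, limma adjusted p = 0.0123, in a contrast that called 7.44% of all genes). Within run 1 alone, the difference of batch 3 from batch 2 was -0.016 (SE 0.0724, limma adjusted p = 0.963, n = 7 and 15, with 0% called). Batch 4 was higher than batch 3 by 0.22 (SE 0.0515, limma adjusted p = 0.000165, with 54.9% called) and batch 6 by 0.33 (SE 0.0590, limma adjusted p = 1.77e-06, with 59.2% called). Batches 2, 4 and 6 did not differ from each other past the threshold, with limma adjusted p between 0.233 and 0.889. With the column run in the model, batch 4 was above batch 3 by 0.22 but did not pass (SE 0.0974, limma adjusted p = 0.0899), batch 6 was above batch 3 by 0.32 (SE 0.101, limma adjusted p = 0.00818), and batch 6 was above batch 2 by 0.32 and passed (SE 0.126, limma adjusted p = 0.0430). That last difference was 0.092 without the run (SE 0.0652, limma adjusted p = 0.264). The differences with the run all go through the 3 rats of batch 3 in run 3, which had 1404 to 1578 genes listed at 0.

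Within batch 3 the lowest Nr3c1 levels were those of run 2, and those of run 3 were low as well. The 7 rats of run 1 lay between 1004 and 1393 with a median of 1133. The 12 rats of run 2 lay between 679 and 1023 with a median of 882, and 10 of them lay under the lowest rat of run 1. The 3 rats of run 3 were at 950, 961 and 995, all under the lowest rat of run 1. Run 2 was lower than run 1 (a change of -21.5%, log2 difference -0.35, SE 0.0808, limma adjusted p = 0.00824, sex in the model), in a comparison that called 4020 of 17512 genes (23%). Fkbp5, Sgk1 and Crhr1 did not pass between these runs, with limma adjusted p of 0.463, 0.282 and 0.515. The number of genes at 0 was 376 to 642 in run 1 and 399 to 1661 in run 2 of this batch. With that number as a covariate the Nr3c1 difference was -0.44 (limma adjusted p = 0.0147, with 2210 genes called). Across batches with the column run in the model, the difference of batch 3 from batch 2 in Nr3c1 was -0.0026 (SE 0.0749, limma adjusted p = 0.993, with 0 genes called, 0%).

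**Figure D4:**
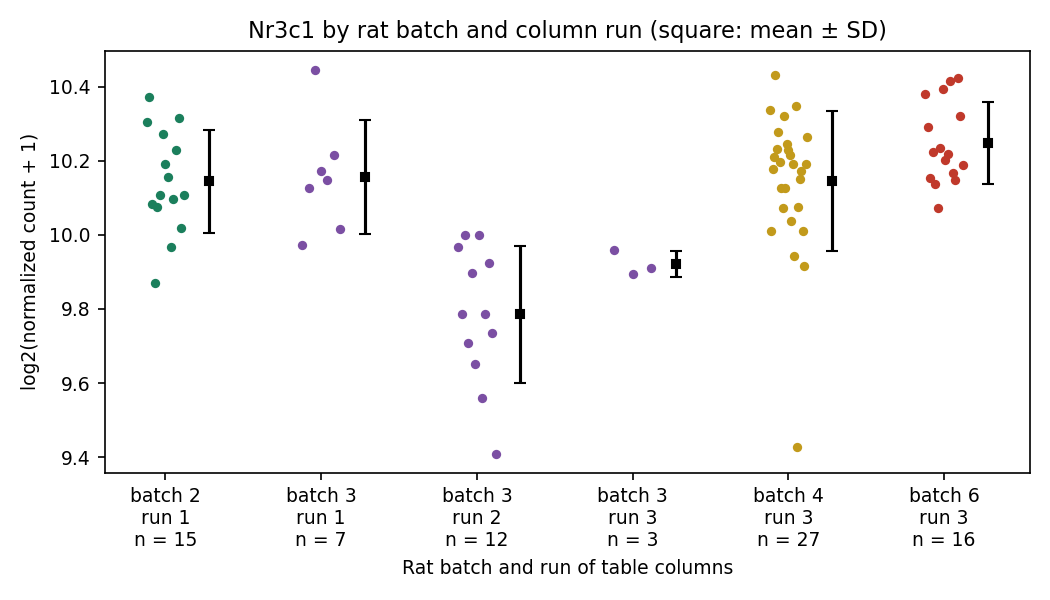
Nr3c1 level (vertical, log2 of the normalized count + 1) of each rat by rat batch and column run (horizontal), with the mean and SD of each set as a square and bar. The 12 rats of batch 3 in run 2 average 9.79, and the 7 rats of the same batch in run 1 average 10.16.

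Crhr1, the receptor of corticotropin-releasing hormone, did not pass the F-test over batches. It lay between 46 and 92 in batch 2 (median 73), between 45 and 110 in batch 3 (median 80), between 44 and 130 in batch 4 (median 64) and between 46 and 88 in batch 6 (median 69.5). In single contrasts, batch 4 differed from batch 3 by -0.27 (SE 0.0961, limma adjusted p = 0.0138, with 54.9% of all genes called). Batch 6 differed from batch 3 by -0.25 (SE 0.110, limma adjusted p = 0.0413, with 59.2% called). With the column run in the model these differences were -0.30 (SE 0.205) and -0.29 (SE 0.211), of about the same size, and neither passed (limma adjusted p = 0.276 and 0.282, with 24.8% and 39.3% of all genes called). The highest level, 130, was that of female rat 4 of batch 4, in which 1491 genes were listed at 0.

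The 2 target genes were next compared with each other and with the receptors across the 80 rats, after sex, batch and column run had been taken out. Fkbp5 and Sgk1 gave Pearson's r = 0.233 (permutation p = 0.036, adjusted p = 0.321 over 14 relations) and Spearman's rho = 0.311 (permutation p = 0.00496, adjusted p = 0.0694). Neither passed the adjustment. Without the 2 rats farthest from the median in Fkbp5, r was 0.213. Within batches r was 0.611 in batch 2 (n = 15), 0.126 in batch 3 (n = 22), 0.12 in batch 4 (n = 27) and 0.502 in batch 6 (n = 16), so that the relation was stronger in the smaller batches, a difference that was not tested.

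**Figure D5:**
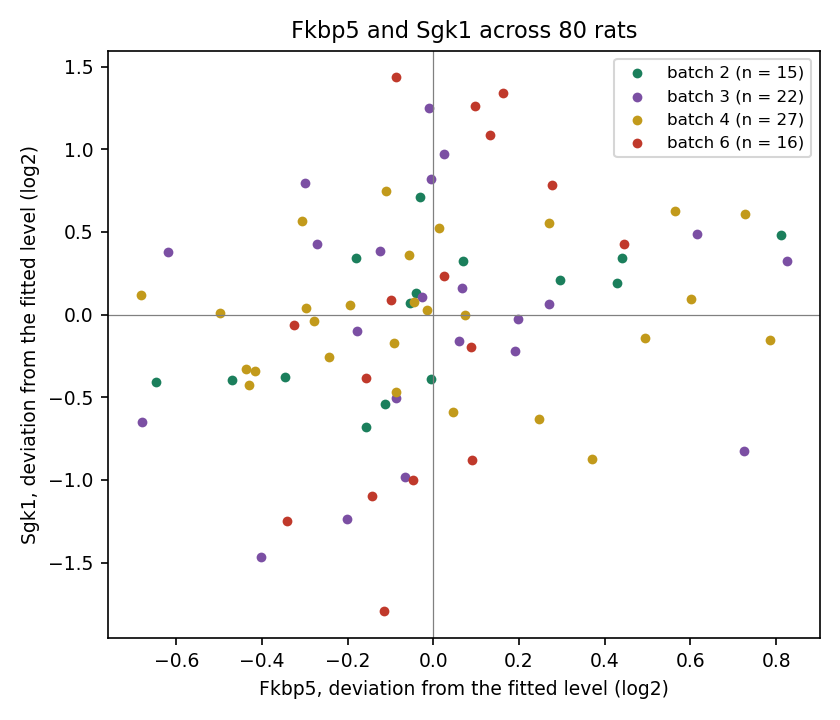
Deviation of Sgk1 (vertical) against that of Fkbp5 (horizontal) from the level fitted by sex, batch and column run, both in log2, for 80 rats coloured by batch. The points scatter widely around r = 0.233, and the 2 lowest Sgk1 deviations belong to a rat of batch 3 and a rat of batch 6.

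Nr3c1 went with neither target gene past the adjustment. Its relation to Fkbp5 had r = -0.166 (permutation p = 0.142, adjusted p = 0.484) and rho = -0.262 (permutation p = 0.0189, adjusted p = 0.132), and that to Sgk1 had r = -0.135 and rho = -0.172 (adjusted permutation p = 0.484 and 0.397). With Crhr1 the values were r = -0.224 and rho = -0.236 (adjusted permutation p = 0.321 and 0.158). Without the 2 farthest rats, r was -0.292 for Fkbp5, -0.160 for Sgk1 and -0.232 for Crhr1. Fkbp5 and Crhr1 had r = 0.073 and Sgk1 and Crhr1 had r = -0.124, with adjusted permutation p of 0.660 and 0.484. The remaining 8 relations set each gene against the number of genes at 0 and against the recovered total, and the lowest adjusted permutation p for r among them was 0.373.

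How many other genes of the table followed each of the 4 genes from rat to rat differed widely. With the level of the gene as a covariate beside sex, batch and column run, limma called 6092 of 17511 other genes for Nr3c1 (34.8%), of which 3074 had a positive slope and 3018 a negative one. It called 1121 for Crhr1 (6.40%), 272 for Fkbp5 (1.55%) and 55 for Sgk1 (0.314%). Of the 55 genes that followed Sgk1, 46 rose with it and 9 fell. Of the 272 that followed Fkbp5, 164 rose with it and 108 fell. The genes share libraries, so a count of followers describes these rats and is no list of targets.

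The counts for Nr3c1 and Crhr1 depended on single rats. Without male rat 35 of batch 4, whose Nr3c1 level of 688 was far under the other rats of its batch (965 or more), 3290 genes followed Nr3c1. Without female rat 4 of batch 4, 155 genes followed Crhr1. Without the 2 rats farthest from the fitted level the counts were 2178 for Nr3c1 and 77 for Crhr1. For Sgk1, 49 genes were called without male rat 7 of batch 6 and 47 without female rat 9 of batch 3. For Fkbp5, 241 were called without male rat 8 of batch 3 and 227 without male rat 41 of batch 2. With a whole batch left out, however, the count for Fkbp5 ran from 68 to 1027, and that for Crhr1 from 0 to 2390.

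The genes most like Sgk1 and Fkbp5 had a positive r in every batch, as had those most like Nr3c1 and Crhr1. They are given by identifier, because the files do not pair identifiers with names. They were picked for their correlation over the same 80 rats, so r over all rats and r within batches are descriptions. ENSRNOG00000009565 went with Sgk1 at r = 0.889 and rho = 0.891 over 80 rats, with r between 0.833 and 0.952 in the 4 batches. Its level ran from 40 to 488 normalized counts. ENSRNOG00000007390 went with Sgk1 at r = 0.856 and rho = 0.820, and r within batches was 0.847, 0.852, 0.728 and 0.934. Without the 2 rats farthest in Sgk1 these r were 0.877 and 0.833. Their r with Fkbp5 was 0.330 and 0.124.

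ENSRNOG00000013306 went with Fkbp5 at r = 0.776 and rho = 0.774, with r of 0.882, 0.759, 0.827 and 0.671 in batches 2, 3, 4 and 6, and its r with Sgk1 was 0.508. ENSRNOG00000029980 went with Fkbp5 at r = 0.758 and rho = 0.739, with r of 0.540 in batch 6 and 0.913 in batch 2, and its r with Sgk1 was 0.117. The gene most opposed to Fkbp5 was ENSRNOG00000006255, at r = -0.606 and rho = -0.554, and the gene most opposed to Sgk1 was ENSRNOG00000002607, at r = -0.571 and rho = -0.664. For Nr3c1 the most alike was ENSRNOG00000011294, at r = 0.724 and rho = 0.660, where r was 0.592 without the 2 farthest rats. Its r with Nr3c1 was 0.78, 0.71, 0.81 and 0.48 in batches 2, 3, 4 and 6. For Crhr1 the most alike was ENSRNOG00000013737, at r = 0.552 and rho = 0.483, with r of 0.105 in batch 2 and 0.795 in batch 4.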

How the data were processed

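RNA-Seq of hand-dissected LHb was used for 81 rats. Per the study's methods and the submitters' processing notes, the authors trimmed reads with cutadapt and estimated counts per gene with RSEM on Rnor_6.0. They adjusted the counts to the upper quartile with DESeq2 and dropped sparse genes. Samples were removed for few reads, for a genotype mismatch or as outliers of expression in a principal component analysis. Versions are not given in the sources used here. The deposited values are log2(adjusted estimated count + 1), whole numbers before the log. Adding 1 understates changes of low genes. Of 87 labelled samples, 6 had been removed by the authors and were not analysed here. Sex and batch came from the labels, where each sample is a separate rat.

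The sex, batch and interaction effects and the genes that follow each gene were fitted with limma 3.58.1 (R 4.3.3, eBayes with a trend) on all 17512 genes and 80 rats, with Benjamini-Hochberg adjustment and a threshold of 0.05. Relations between genes used two-sided tests of 100000 permutations, adjusted over 14 relations. On simulated data with 200 of 17512 genes shifted by 0.5 log2, the sex test recovered 94% of them with 6.47% false calls. The contrast of batches 6 and 2 recovered 81% with 4.71% false calls, and the test of following genes 55% with 6.78%. These shares are over all shifted genes and do not give the power for any single gene of the 4. The total before scaling was recovered from gaps among low whole numbers, for 65 of 81 rats, by maximum likelihood. Python 3.11.15 was used with scipy 1.17.1, numpy 2.4.6, matplotlib 3.10.9 and pandas 2.3.3.

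All 4 genes are named throughout. The other genes named are the most alike or opposed by Pearson's r of residuals among the 13359 genes whose mean log2 value was 5 or more, at most 2 in each direction for a gene. The members and gene lists were chosen with earlier results of these data known. Lists of pathway and cell type markers had been drawn up, but no identifier beyond the 4 genes could be given a symbol (0 matched in the reference table), so they were not used. Alternatives were another pseudocount, filter, scaling, rank transformation, covariates, single batches left out, and column runs. Single rats left out, the 3 rats of batch 3 in run 3 left out, other genes as covariates and the comparisons within batches and runs were chosen after seeing the data.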

Additional observations from a re-analysis of the deposited data

Results flagged for a closer look

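One level was set apart from the rest of its set. In batch 6, male rat 11 had an Fkbp5 level of 9.82 on the log2 scale, 905 normalized counts, while the other 7 males of the batch lay between 524 and 676 normalized counts, and the gap was past Dixon's 95% critical value for 8 samples. Of 16 sets of 4 to 10 rats (by gene, sex and batch) 1 was past it, where chance gives about 0.8.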

How the results depend on the processing

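No paired analysis was possible because the rats carry no number that pairs them, and replicate numbers only name them. The marker-level covariate was not run, since no marker was matched to an identifier, and the rank transformation gives no spread, since it sets every gene's SD alike.

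The sex differences passed no test under any alternative run. Their sign, which no test had called, turned for Nr3c1 with 20 expression components (0.0126), for Sgk1 without batch 6 (0.0236), and for Crhr1 with a pseudocount of 8 (-0.000448), with median-of-ratios scaling (-0.00346), without batch 4 (-0.0666) and without batch 6 (-0.0298).

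The batch F-test, by limma's adjusted p, was lost with 20 components as covariates for Nr3c1 (0.862), Fkbp5 (0.453) and Sgk1 (0.257), when 20 of 17512 genes were called against 11444, and 6180 with the column run. It was lost for Nr3c1 without batch 3 (0.154) and for Fkbp5 without batch 6 (0.410), and gained for Crhr1 with a pseudocount of 8 (0.0495), with genes of mean log2 of at least 5 (0.0426), with rank transformation (0.0222), without batch 2 (0.0344) and without batch 6 (0.0468). The cause was not tested. With 20 components, which can hold the batches, the Sgk1 contrasts turned to 0.88 (batch 4 minus 2), 0.33 (6 minus 2) and 0.89 (6 minus 3), none called. Batch 6 minus 4 of Sgk1 had a limma adjusted p of 0.0754 after rank transformation and 0.0617 with genes at 0 as a covariate. These settings called 1806 and 292 genes in that contrast, against 1058. The sex test called 7 genes with 20 components against 23, and the interaction 1 gene with a pseudocount of 8.

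Genes that followed Nr3c1 numbered 222 with 20 components, 1852 without batch 4, 2178 without the 2 farthest rats and 3290 without male rat 35 of batch 4. For Fkbp5 they numbered 118 with 20 components, 1027, 124, 68 and 169 without batches 2, 3, 4 and 6, and 2773 and 469 with the Nr3c1 and Crhr1 levels as covariates. For Sgk1 they numbered 29 without batch 6. For Crhr1 they numbered 0 with 20 components (1107 at an unadjusted limma p under 0.05) and 0 without batch 4 (1609), 717, 2390 and 177 without batches 2, 3 and 6, 371 without the column run, 148 and 1708 with the Nr3c1 and Fkbp5 levels, 77 without the 2 farthest rats and 155 without female rat 4 of batch 4.

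Of the pairs, Nr3c1 and Fkbp5 passed with 20 components (r = -0.463, limma adjusted p = 0.0310), though not with Fkbp5 as the covariate (0.0507). The SD fell to 0.110 for Nr3c1, 0.301 for Fkbp5 and 0.259 for Crhr1 with 20 components, and to 0.299 for Crhr1 with a pseudocount of 8. With 20 components the median SD of genes of like level fell too, to 0.0933, 0.103 and 0.287 in the same order. Nr3c1 then lay above 70.7% of its neighbours in level, Fkbp5 above 98.5% and Crhr1 above 31.6%. Sgk1, at 0.657, lay above 100% of its own.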
